A study of Mus musculus with 4 samples.

Results

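Bcl6, Cxcr5, Il21, Ascl2, Tox2, Pou2af1 and Sh2d1a were followed as 7 genes of the T follicular helper (Tfh) program, out of 21887 protein-coding genes. They were chosen by name, with earlier results of these data known, and open chromatin over them was counted in single nuclei of T cells from mouse colorectal tumors and the tissue beside them. The comparisons were those of Tfh-like cells with Innate-like T#1 and with PD1+ CD4 cells, and the question was which stretches of DNA at these loci, above all around Bcl6, differ between the labels.

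Tfh cells are CD4+ T cells that help B cells make antibody in germinal centers. Bcl6 is the repressor that directs their development, CXCR5 is the chemokine receptor that brings them into B cell follicles, and IL-21 is the cytokine they give to B cells. Open chromatin marks DNA that proteins can reach, such as promoters and enhancers, and it is not a measure of transcription.

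The T cells were sorted from AKP tumors and from adjacent tumor-free cecum 4 weeks after transplantation. AKP tumors grow from mouse intestinal organoids that lack Apc and Trp53, placed in the cecal wall, and both tissues come from such tumor-bearing mice. Nuclei went into a 10x multiome assay, which reads RNA and transposase-accessible chromatin (ATAC) from the same nucleus, with 1 ATAC library per tissue. Strain, age and the number of animals pooled are not given in the sources used here, and the RNA was not analysed here.

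The authors' annotation gives each of 15621 cells 1 of 17 labels, set from RNA of the same nuclei. Their Tfh cluster was named from Cxcr5 and Bcl6 RNA, so for these 2 genes the label is not independent of the gene. The clusters were drawn from RNA as a whole, so the label may also depend on RNA of the other genes named here. There were 311 Tfh-like cells from cecum and 89 from tumor, with 2132387 and 560742 fragments. Innate-like T#1 cells numbered 1398 and 1841, with 8067212 and 12494761 fragments. The tumor held 616 PD1+ CD4 cells, with 6143256 fragments, and the cecum only 14, so they were compared in the tumor alone. The level of a gene is the number of fragments with an end in its span plus 5 kb on each side, per 1000000 fragments of the label (FPM). One fragment of the tumor Tfh-like cells was worth 1.78 FPM, and 0 fragments there allow up to 5.35 FPM (3 counts). With 1 library per tissue no test was possible, and tissue and library cannot be told apart. The intervals are exact, at 95%, and cover the counting error alone, not the variation between animals or between cells.

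The cecum library held 66399623 fragments and the tumor library 96644537, of which 66.2% and 64.3% came from labelled cells. Fragments near gene starts made up 36.6% to 43.6% of a label's total, and PD1+ CD4 cells of the tumor had the lowest share. A barcode was labelled in both libraries 84 times, for 9 Tfh-like cells of the cecum and 0 of the tumor. The summed level of 5 Tfh markers, 3 of them members here, was highest of the 17 labels in Tfh-like cells of both libraries, at 695 and 678 FPM. Icos, a costimulatory receptor on that list and no member, stood at 113 and 118 FPM in Tfh-like cells against 47.5 and 47.8 FPM in Innate-like T#1. Pdcd1, the other non-member, was under 1.5-fold higher (log2 ratios 0.35 and 0.45), and Bcl6 was lower (-0.20 and -0.33). Neither Icos (0.14, -0.25 to 0.50) nor Pdcd1 (-0.27, -0.56 to 0.02) differed from PD1+ CD4 cells of the tumor beyond counting error. The 6 markers of innate-like T cells summed to 609 and 594 FPM in Innate-like T#1, at places 5 (cecum) and 4 (tumor) of the 17 labels, so the list did not set this label apart from all others. Of the 6, Fcer1g, Zbtb16 and Klrk1 were lower in Tfh-like cells than in Innate-like T#1 by log2 ratios from -3.52 to -1.80, whereas Tyrobp, Klrb1c and Il2rb had ratios from -0.80 to 0.00. The 4 PD1+ CD4 markers were most open in the cells of that label, at 498 FPM in the tumor. The 6 T cell markers summed to 985 and 915 FPM in Tfh-like cells, within the 712 to 1122 and 717 to 1081 FPM of the labels of at least 50 cells. The 6 B cell markers were also most open in Tfh-like cells, at 210 and 187 FPM, where those labels ranged from 120 to 210 and from 125 to 187 FPM. All 6 had fragments in cecum Tfh-like cells, and Ms4a1 was at 0 in those of the tumor. Pax5 made the difference to Innate-like T#1 (90.5 and 76.7 against 42.9 and 46.6 FPM), while Cd79b was lower (6.10 and 3.57 against 20.5 and 21.4 FPM). Bcl6, Cxcr5 and Pou2af1 are B cell genes too, and the part of B cell DNA in their levels was not tested.

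The sequences just before the transcription start of 4 genes are shown because each start was counted as an open window of its own. They are the reference sequence of RefSeq (GRCm38.p6, the same build as mm10), 5′ to 3′ on the coding strand, and only the bases that precede the gene's span. Capitals mark a match to the STAT motif TTCNNNGAA, the site of the factors that IL-6 and IL-21 activate. The table of promoters matched 5 of the 7 genes, and Cxcr5 and Sh2d1a had no entry. The Bcl6 stretch lies at chr16:23988867-23989102 on the minus strand, Il21 at chr3:37232637-37232886 on the minus strand, Tox2 at chr2:163202877-163203057 on the plus strand and Pou2af1 at chr9:51213440-51213689 on the plus strand.
Bcl6: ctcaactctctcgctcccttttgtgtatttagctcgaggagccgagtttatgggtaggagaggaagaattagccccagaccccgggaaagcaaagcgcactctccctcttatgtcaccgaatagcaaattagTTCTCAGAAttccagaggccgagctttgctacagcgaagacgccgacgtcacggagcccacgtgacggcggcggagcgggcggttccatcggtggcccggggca
Il21: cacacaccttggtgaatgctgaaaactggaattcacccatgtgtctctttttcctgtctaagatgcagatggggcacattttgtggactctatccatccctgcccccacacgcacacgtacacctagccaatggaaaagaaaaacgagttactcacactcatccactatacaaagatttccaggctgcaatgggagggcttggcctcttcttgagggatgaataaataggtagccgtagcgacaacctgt
Tox2: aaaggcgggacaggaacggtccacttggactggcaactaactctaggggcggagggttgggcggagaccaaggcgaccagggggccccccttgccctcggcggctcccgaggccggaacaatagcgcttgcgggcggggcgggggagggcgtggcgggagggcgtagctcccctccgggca
Pou2af1: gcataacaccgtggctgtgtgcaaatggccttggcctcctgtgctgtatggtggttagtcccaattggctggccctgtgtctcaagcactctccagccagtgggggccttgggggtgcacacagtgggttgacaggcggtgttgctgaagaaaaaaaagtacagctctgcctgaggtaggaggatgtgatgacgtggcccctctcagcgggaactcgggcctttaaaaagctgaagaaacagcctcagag

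In these windows, the 300 bases around each start, the STAT motif was found 1 time at the Bcl6 start and in none of the starts of Il21, Ascl2, Tox2 and Pou2af1. Of all 32851 promoters in the table, 8.30% held it on either strand. A second Bcl6 promoter inside the gene, at chr16:23981234-23981533, held 3 matches. The E-box CAGCTG (16.3% of promoters), the octamer ATGCAAAT to which the partner of the Pou2af1 protein binds (1.74%), the TCF/LEF motif CTTTGAT (3.73%) and the AP-1 motif TGANTCA (7.81%) had no match at these 5 starts. A pair of overlapping Tox2 promoters inside the gene, from chr2:163225203-163225502, held 1 TCF/LEF match. All were searched on both strands, and a match is a description of letters only.

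The Bcl6 start window was open in all 3 labels, at 23.4 and 24.97 FPM in Tfh-like cells of the cecum and tumor, 17.7 and 16.2 FPM in Innate-like T#1 and 16.6 FPM in PD1+ CD4 cells of the tumor. The Pou2af1 start was at 22.5 and 30.3 FPM in Tfh-like cells, 11.9 and 14.1 FPM in Innate-like T#1 and 3.09 FPM in PD1+ CD4 cells. The Tox2 start was at 30.0 and 16.1 FPM in Tfh-like cells, 4.46 and 5.68 FPM in Innate-like T#1 and 16.4 FPM in PD1+ CD4 cells. Of these 3 starts, that of Pou2af1 differed most between Tfh-like and PD1+ CD4 cells, and that of Tox2 differed from Innate-like T#1 but not from PD1+ CD4 cells beyond counting error in the tumor. The Il21 start was at 10.3 and 7.13 FPM in Tfh-like cells (22 and 4 fragments) and 4.56 FPM in PD1+ CD4 cells. Innate-like T#1 had 0 fragments there in the cecum, which allow up to 0.372 FPM, and 1 in the tumor. The second Bcl6 promoter had 0 fragments in Tfh-like cells of either library against 18 and 30 in Innate-like T#1 (2.23 and 2.40 FPM), and in the tumor 0 fragments allow more than that level.

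Of the 7 genes, 6 were at least 1.5-fold more open in Tfh-like cells than in Innate-like T#1 in both libraries, and none was 1.5-fold less open. Among 16367 genes with at least 20 fragments over both labels in each library, 4.95% were higher and 8.08% lower by the same rule. The 7 genes had median log2 ratios of 1.84 (cecum) and 1.40 (tumor), where the medians over all genes were 0.00 and 0.02. Because of how the genes were chosen, these counts are a description. The exception was Bcl6. Against PD1+ CD4 cells of the tumor, 5 of the 7 were 1.5-fold higher, none was lower, and Bcl6 and Tox2 were neither. Of 16053 genes, 10.3% were higher and 14.9% lower in that comparison, and the medians were 0.81 for the 7 genes and 0.09 for all genes. Each comparison uses the same Tfh-like cells of the tumor. Counting without the 5-kb flanks, or leaving out cells with over 3 times the median number of fragments, left 3 of 7 higher than in PD1+ CD4 cells. Sh2d1a then had log2 ratios of 0.14 and 0.48, and Ascl2 was under 1.5-fold (0.55) or short of 20 fragments. Without the barcodes labelled in both libraries, 5 of 7 were counted as higher than in Innate-like T#1, since Ascl2 fell short of 20 fragments with ratios of 2.77 and 2.97.

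**Figure D1:**
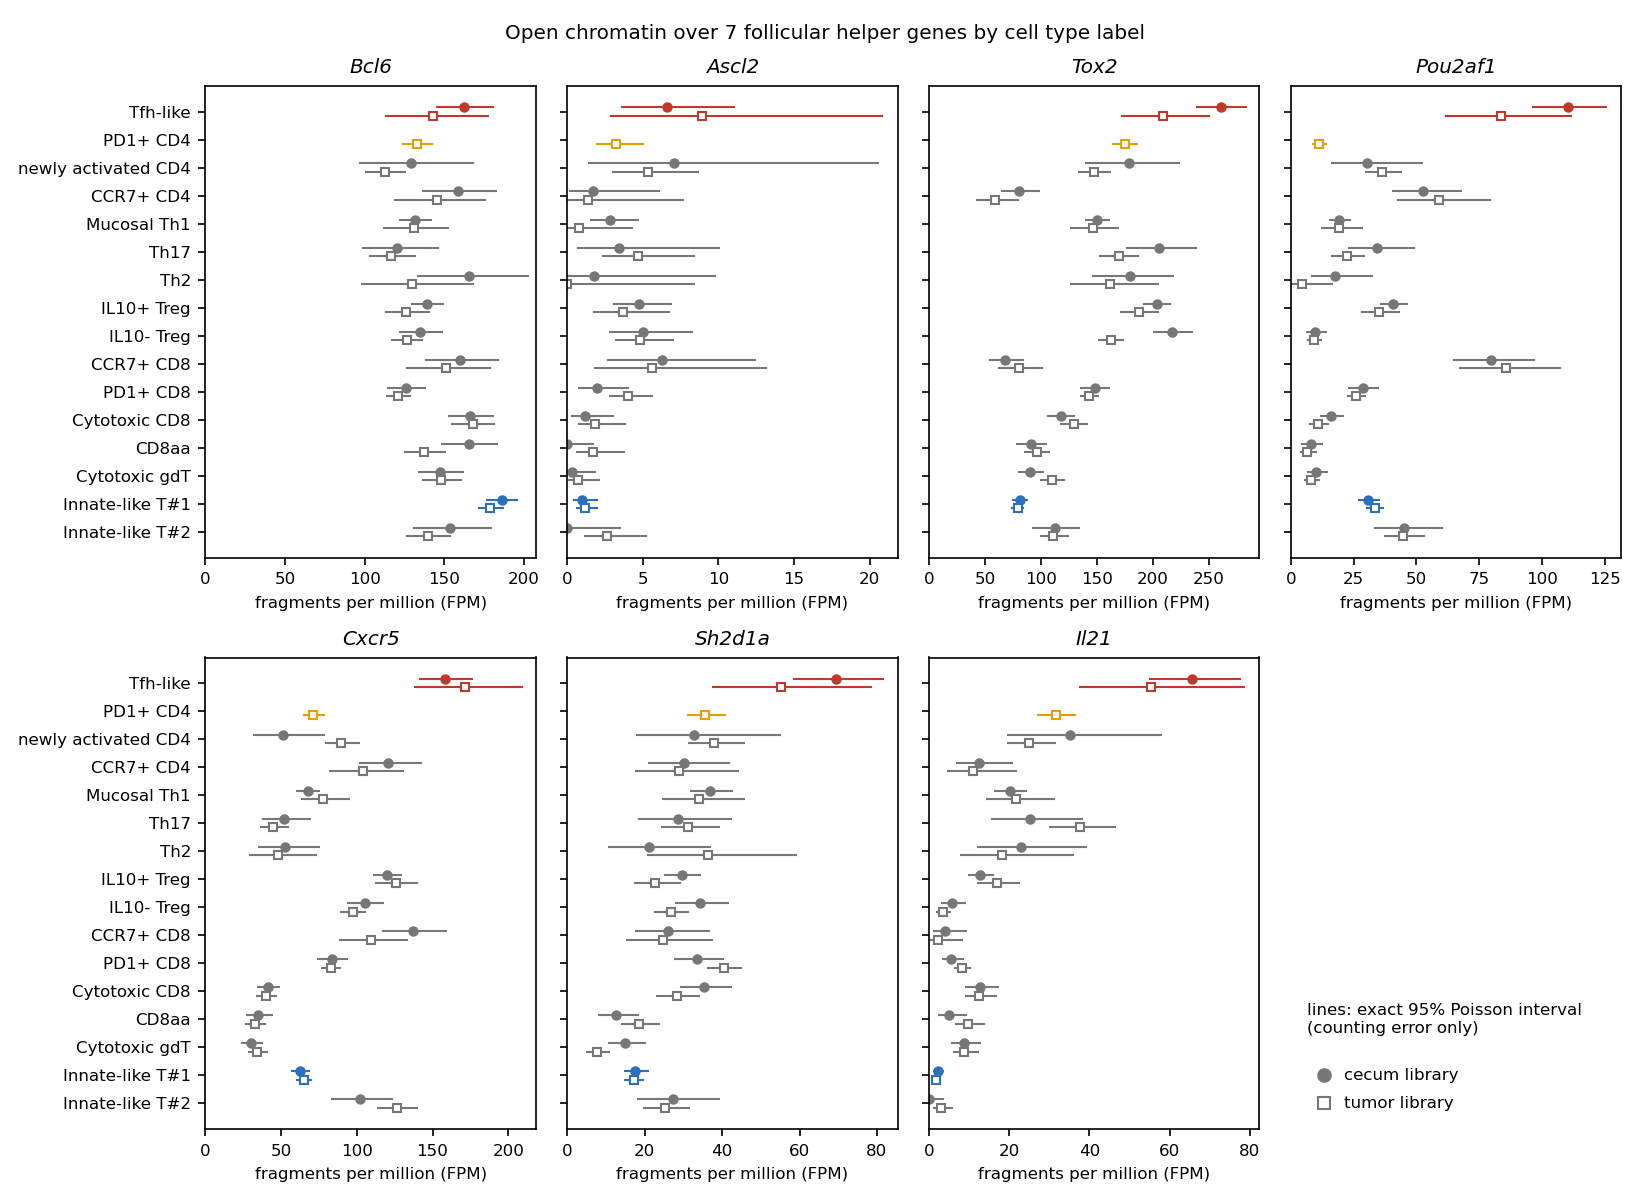
Open chromatin over the 7 genes (FPM, gene span plus 5 kb on each side) in 16 of the 17 labels, with filled circles for the cecum library and open squares for the tumor library; lines are exact 95% Poisson intervals, and PD1+ CD4 cells of the cecum (14 cells) are left out. Tfh-like cells (red) lead for Cxcr5, Il21, Tox2 and Sh2d1a, while Innate-like T#1 (blue) leads for Bcl6.

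Bcl6 (chr16:23965050-23988866, minus strand) was the least discriminating of the 7. Its window gave 162 and 143 FPM in Tfh-like cells of the cecum and tumor, 186 and 179 FPM in Innate-like T#1 and 133 FPM in PD1+ CD4 cells of the tumor. Tfh-like cells were thus slightly below Innate-like T#1, by log2 ratios of -0.20 (cecum, -0.37 to -0.03) and -0.33 (tumor, -0.67 to -0.01). Their ratio to PD1+ CD4 cells was 0.10 (-0.25 to 0.43), with 80 against 817 fragments. PD1+ CD4 cells of the cecum gave 6 fragments, too few to compare. Counted within 1 kb of the start alone, the ratios to Innate-like T#1 had the opposite sign, 0.28 and 0.26. The window also holds the lncRNA gene Gm31527, which runs from the Bcl6 start away from it.

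Innate-like T#1 had the highest Bcl6 level of all labels in both libraries. It stood above the next label, Cytotoxic CD8, beyond counting error in the cecum only (186 against 166 FPM). Tfh-like cells were at place 5 in the cecum and 6 in the tumor, but over the settings tried their place ran from 4 to 7 and from 4 to 14, so it is not fixed at this depth (80 fragments in the tumor). Beyond counting error they were below Innate-like T#1 in both libraries and above 5 of 15 other labels of the cecum and 0 of 16 of the tumor. The levels of the labels lay close together. The lowest of at least 50 cells were Th17 cells in the cecum (120.6 FPM) and newly activated CD4 cells in the tumor (112.8 FPM), and the highest level exceeded the lowest by 1.54 and 1.59 times.

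Cxcr5 (chr9:44511787-44526444) was at 158 and 171 FPM in Tfh-like cells, 62.5 and 64.9 FPM in Innate-like T#1 and 71.3 FPM in PD1+ CD4 cells. That is 2.53-fold (2.20 to 2.91) and 2.64-fold (2.11 to 3.26) over Innate-like T#1 and 2.40-fold (1.90 to 3.001) over PD1+ CD4 cells. No label was above Tfh-like cells, and the nearest were CCR7+ CD8 cells in the cecum (137 FPM, log2 ratio 0.21, -0.06 to 0.48) and Innate-like T#2 in the tumor (126 FPM, 0.44, 0.10 to 0.77). The first of these does not differ from Tfh-like cells beyond counting error. A part of Bcl9l, a cofactor gene of Wnt signaling, lies in the same window.

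Il21 (chr3:37222759-37232636, minus strand) had the widest contrast. Tfh-like cells had 140 and 31 fragments (65.7 and 55.3 FPM), Innate-like T#1 had 18 and 23 (2.23 and 1.84 FPM) and PD1+ CD4 cells had 194 (31.6 FPM). The excess over Innate-like T#1 was 29.4-fold (cecum, 17.9 to 51.1) and 30.0-fold (tumor, 16.9 to 53.9), and only 1 of 16367 genes had a larger ratio in each library. Over PD1+ CD4 cells it was 1.75-fold (1.16 to 2.57). Among the other labels of at least 50 cells the highest Il21 levels were those of newly activated CD4 cells of the cecum (35.1 FPM, log2 ratio 0.90, 0.13 to 1.78) and of Th17 cells of the tumor (37.6 FPM, 0.56, -0.08 to 1.16). Over the whole window, Th17 cells of the tumor therefore did not differ from Tfh-like cells beyond counting error. The lncRNA gene Gm36168 lies within the window.

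Sh2d1a (chrX:42502565-42522097) encodes SAP, the adaptor through which SLAM family receptors signal between T and B cells. It was at 69.4 and 55.3 FPM in Tfh-like cells, 17.6 and 17.1 FPM in Innate-like T#1 and 35.6 FPM in PD1+ CD4 cells. The folds were 3.94 (3.11 to 4.999) and 3.23 (2.14 to 4.72) over Innate-like T#1 and 1.55 (1.03 to 2.27) over PD1+ CD4 cells. Tfh-like cells led in both libraries, beyond counting error above all 15 others of the cecum with at least 50 cells and above 12 of 16 of the tumor.

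Among the transcriptional regulators, Tox2 (chr2:163203058-163324172, plus strand), an HMG-box factor linked to Tfh development, was at 260 and 209 FPM in Tfh-like cells, 81.1 and 79.2 FPM in Innate-like T#1 and 175 FPM in PD1+ CD4 cells. The folds over Innate-like T#1 were 3.21 (2.86 to 3.60) and 2.63 (2.16 to 3.19), and the log2 ratio to PD1+ CD4 cells was 0.26 (-0.03 to 0.53). CCR7+ CD4 cells of the tumor had the lowest Tox2 level of all labels there (58.9 FPM), and the nearest to Tfh-like cells were IL10- Treg cells in the cecum (217 FPM) and IL10+ Treg cells in the tumor (187 FPM). Only the first was below Tfh-like cells beyond counting error.

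Pou2af1 (chr9:51213690-51240079, plus strand), which encodes the octamer coactivator OCA-B, was at 110 and 83.8 FPM in Tfh-like cells, 30.9 and 33.4 FPM in Innate-like T#1 and 11.2 FPM in PD1+ CD4 cells. It was the member that most set Tfh-like cells apart from PD1+ CD4 cells, 7.46-fold (5.04 to 10.97), and 5 of 16053 genes had a larger ratio. Of the 6 B cell markers, Pax5 was also higher than in PD1+ CD4 cells (76.7 against 36.6 FPM, log2 ratio 1.07, 0.56 to 1.54), and Cd22 was past 1.5-fold with an interval that holds 0 (0.87, -1.12 to 2.41). Cd79a and Cd79b were within 1.5-fold (0.23 and -0.40), and Ms4a1 had 0 Tfh-like fragments against 14. The part of B cell DNA in the Pou2af1 level was not tested. Over Innate-like T#1 it was 3.57-fold (2.97 to 4.28) and 2.51-fold (1.82 to 3.40). CCR7+ CD8 cells came next in the cecum at 79.5 FPM, and in the tumor they stood at 85.6 FPM, not different from Tfh-like cells beyond counting error.

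Ascl2 (chr7:142966822-142969264, minus strand), a bHLH factor that can induce Cxcr5, had few fragments anywhere. Tfh-like cells had 14 and 5 (6.57 and 8.92 FPM), Innate-like T#1 had 8 and 15 (0.992 and 1.2005 FPM) and PD1+ CD4 cells had 20 (3.26 FPM). The ratios to Innate-like T#1 were 2.73 (1.37 to 4.19) and 2.89 (1.08 to 4.43) on the log2 scale, and that to PD1+ CD4 cells was 1.45 (-0.32 to 2.91). Its place at this depth is uncertain, and newly activated CD4 cells of the cecum had 7.03 FPM.

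**Figure D2:**
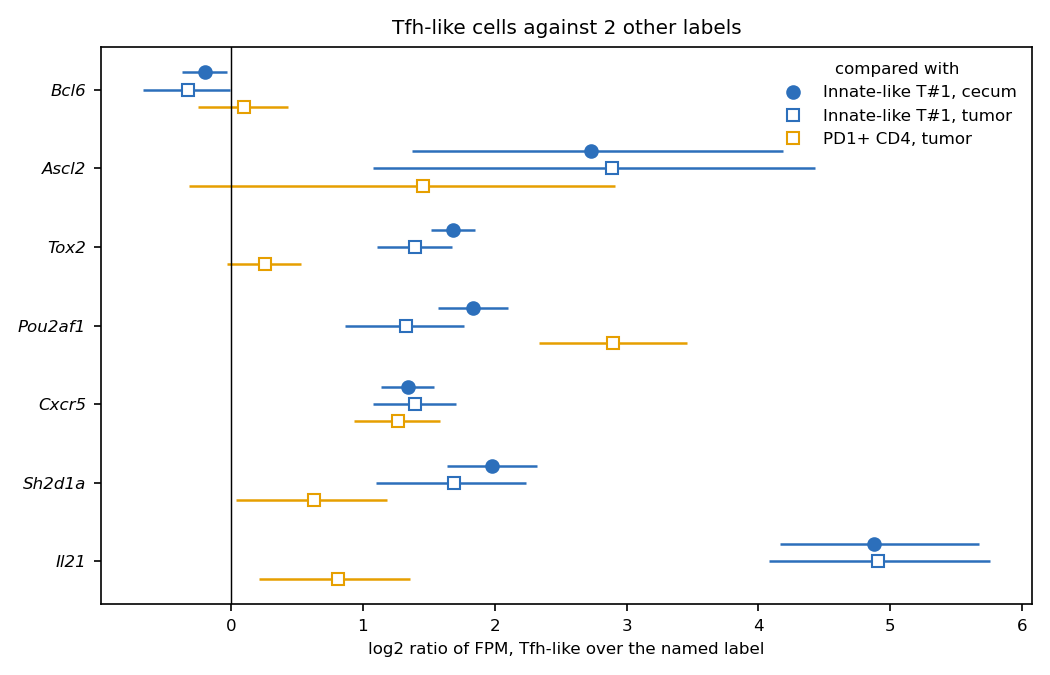
Log2 ratio of FPM for each gene, Tfh-like cells over Innate-like T#1 (blue, filled circle for the cecum and open square for the tumor) and over PD1+ CD4 cells of the tumor (orange), with exact 95% intervals for counting error. Il21 stands at 4.88 and 4.91 against Innate-like T#1 but at 0.81 against PD1+ CD4 cells, Pou2af1 has its largest ratio (2.90) against PD1+ CD4 cells, and Bcl6 lies near 0 in all 3.

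Within Tfh-like cells, the log2 ratio of tumor over cecum at these genes ran from -0.40 (Pou2af1) to 0.44 (Ascl2), and only the interval of Tox2, -0.32 (-0.62 to -0.03), left out 0. The other intervals do not show that the libraries were alike, since that of Ascl2 (5 against 14 fragments) ran from -1.39 to 1.996, and those of Il21, Pou2af1 and Sh2d1a reached -0.86, -0.88 and -0.94.

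The Bcl6 neighborhood was cut into 448 tiles of 500 bp, reaching 100 kb to each side of the gene. A tile was compared when both labels together held at least 20 fragments in each library used, and it separated the labels when they differed at least 2-fold, in both libraries for Innate-like T#1 and in the tumor for PD1+ CD4 cells. Against Innate-like T#1, 32 tiles were compared and 0 were higher in Tfh-like cells, while 2 (6.25%) were lower. Of 94015 tiles of the genome, 4.04% were higher and 6.36% lower. The share of lower tiles at Bcl6 is near that of the genome and is no result about the locus. In the tumor, tiles reached 20 fragments mainly through Innate-like T#1, which had far more fragments than Tfh-like cells. A tile open in Tfh-like cells alone could thus go uncompared, so 0 higher tiles do not show that none was higher. The count of lower tiles at Bcl6 moved with the settings, to 7 with a mean over cells, 5 at 1.5-fold and 1 with the tile grid moved by 250 bp. Against PD1+ CD4 cells, 3 of 20 tiles (15%) were higher and 2 (10%) were lower, where 8.62% and 16.4% of 77868 tiles were.

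**Figure D3:**
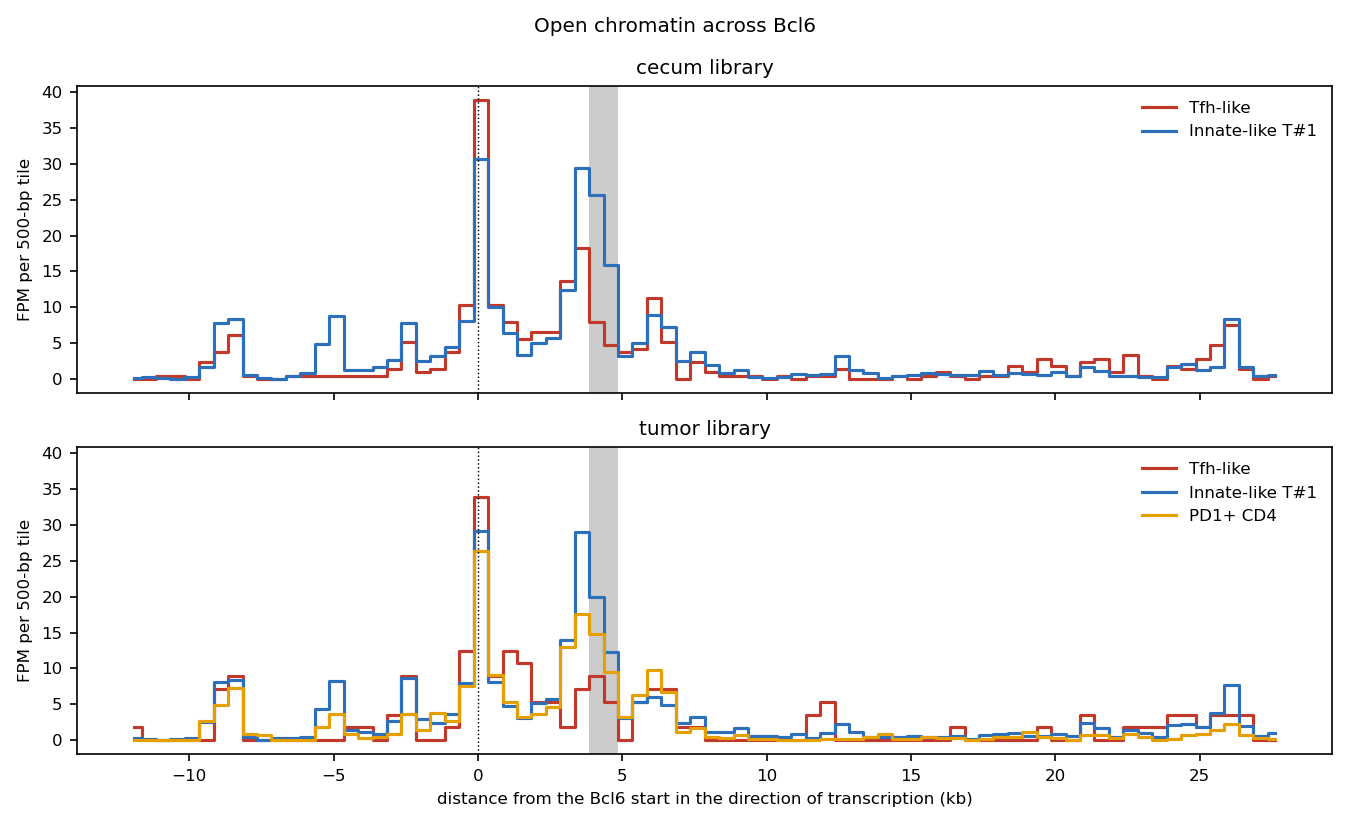
FPM per 500-bp tile along Bcl6, by distance from its start in the direction of transcription (kb), in the cecum (top) and tumor (bottom) libraries; the dotted line is the start and the gray band the 2 tiles lower in Tfh-like cells than in Innate-like T#1. The start tile reaches 38.9 and 33.9 FPM in Tfh-like cells (red) and 26.4 to 30.7 FPM in the other labels drawn, the band is lower in Tfh-like cells, and a peak about 5 kb before the start is seen in Innate-like T#1 (blue) but not in Tfh-like cells.

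The 2 tiles lower than in Innate-like T#1, a share near that of the genome, adjoin inside Bcl6. They form a 1-kb element, chr16:23984001-23985000, which lies 3.85 to 4.85 kb downstream of the start. Tfh-like cells had 26 and 7 fragments there (12.2 and 12.5 FPM), Innate-like T#1 had 279 and 341 (34.6 and 27.3 FPM) and PD1+ CD4 cells of the tumor had 129 (21.0 FPM). The ratios to Innate-like T#1 were -1.50 (-2.14 to -0.92) and -1.13 (-2.45 to -0.07), and that to PD1+ CD4 cells was -0.75 (-2.09 to 0.33). The cecum Tfh-like cells against PD1+ CD4 cells of the tumor gave -0.78 (-1.45 to -0.17), across libraries. These tiles were chosen for their difference from Innate-like T#1, so these ratios are a description, and with the grid moved by 250 bp only 1 tile of the locus was lower. Taken singly in the tumor, the tiles had 3 against 154 and 5 against 250 fragments of Innate-like T#1. Those log2 ratios were -1.20 (-3.50 to 0.37) and -1.17 (-2.80 to 0.08), and both intervals hold 0. Across all 17 labels Tfh-like cells had the lowest level of the element in both libraries, a place that the choice of the tiles favors and that supports nothing further. Just above them came Th17 and CCR7+ CD4 cells in the cecum and newly activated CD4 and CCR7+ CD4 cells in the tumor. At the other end stood Innate-like T#1 in the cecum and Cytotoxic gdT cells in the tumor (33.6 FPM). The intervals of Tfh-like cells, 7.96 to 17.9 and 5.02 to 25.7 FPM, overlap those of the labels just above them.

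**Figure D4:**
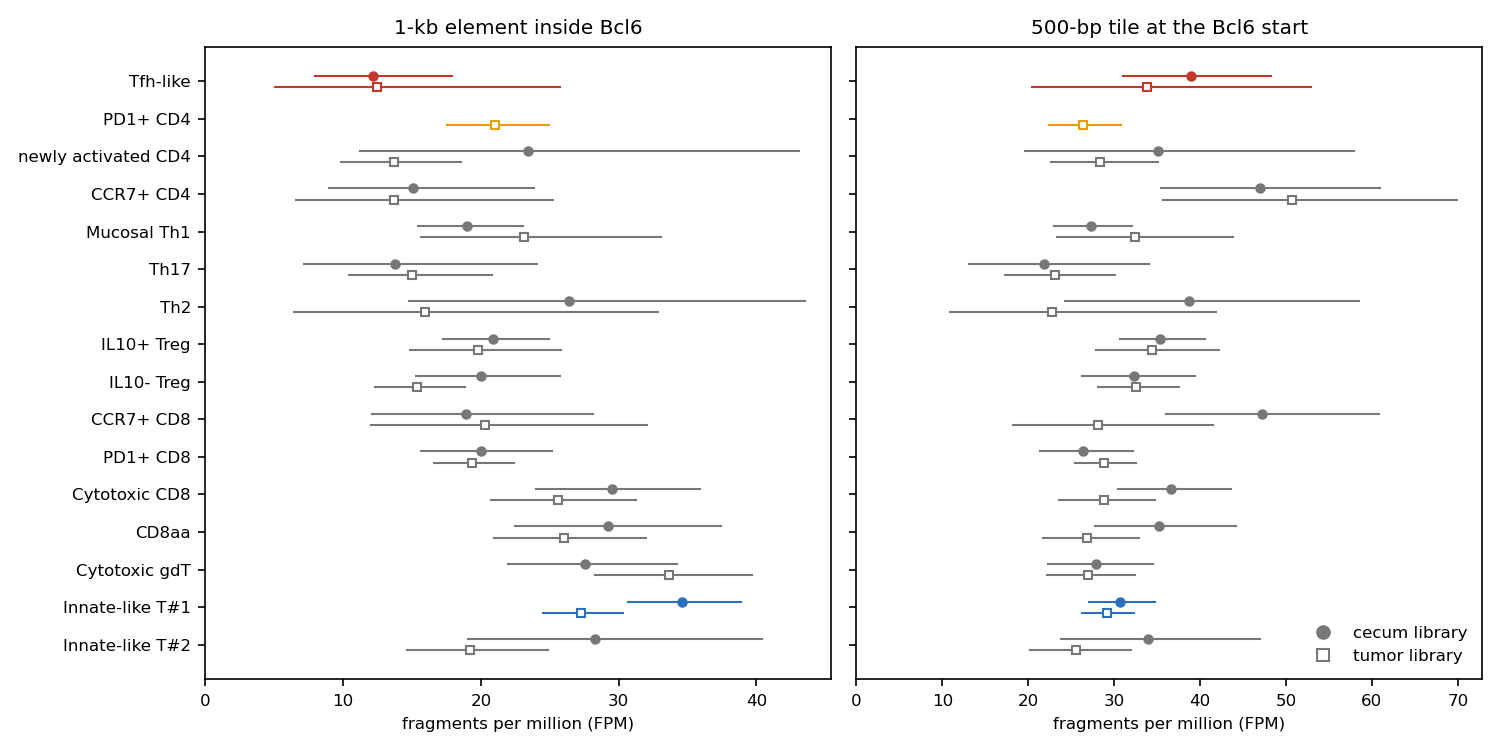
FPM of the 1-kb element inside Bcl6 (left) and of the 500-bp tile at its start (right) in 16 of the 17 labels, with filled circles for the cecum library, open squares for the tumor library and exact 95% Poisson intervals. Tfh-like cells (red) have 12.2 and 12.5 FPM at the element, whose tiles were chosen for being lower there than in Innate-like T#1, and a start tile of 38.9 and 33.9 FPM, within the range of the others.

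The start tile, chr16:23988501-23989000, was the highest of the locus in Tfh-like cells, at 38.9 and 33.9 FPM, with 30.7 and 29.1 FPM in Innate-like T#1 and 26.4 FPM in PD1+ CD4 cells. The log2 ratios were 0.34 (-0.04 to 0.71), 0.22 (-0.53 to 0.88) and 0.36 (-0.41 to 1.05), and all 3 intervals hold 0. With the 83 fragments of the cecum Tfh-like cells set against PD1+ CD4 cells of the tumor, a comparison across libraries, the ratio was 0.56 (0.16 to 0.95). The comparison within the tumor rests on 19 Tfh-like fragments.

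The 2 tiles lower than in PD1+ CD4 cells lie directly beside the element on its start side and rest on few fragments, 4 against 108 (log2 ratio -1.30) at chr16:23985001-23985500 and 1 against 80 (-2.87) at chr16:23985501-23986000. In the cecum, Tfh-like cells had 39 and 29 fragments in the same tiles. Set against PD1+ CD4 cells of the tumor, those gave ratios of 0.06 and 0.06, so no difference was seen with the cecum cells. The 3 higher tiles, at chr16:23987001-23987500, chr16:23987501-23988000 and chr16:23991001-23991500, had 6, 7 and 5 Tfh-like fragments. When at least 5 Tfh-like fragments were required from equal levels, a rule added after the data were seen, 0 of 7 tiles were higher than in PD1+ CD4 cells, while the same 2 were lower. Of 5 tiles compared with Innate-like T#1 under that rule, the same 2 were lower.

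Joined as 2 kb, the 4 adjoining tiles (chr16:23984001-23986000) held 21.1% and 11.3% of the fragments of the Bcl6 window in Tfh-like cells, 31.1% and 31.0% in Innate-like T#1 and 31.2% in PD1+ CD4 cells. Other labels had low shares too, since CCR7+ CD4 cells had 19.0% and 20.8% and newly activated CD4 cells of the cecum 20%. Without them, the window's log2 ratio to Innate-like T#1 was -0.00 (cecum, -0.20 to 0.19) and 0.04 (tumor, -0.33 to 0.38). Against PD1+ CD4 cells it was 0.47 (0.09 to 0.83). The tiles were picked for being low, so removal had to raise these values, and they say how much of the window's difference lay in 2 kb. The 2-kb level of Tfh-like cells was 34.2 FPM in the cecum library and 16.1 FPM in that of the tumor, but 2 of the 4 tiles were picked for their low tumor counts. In the 1-kb element alone the log2 ratio of tumor over cecum was 0.03 (-1.41 to 1.28).

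A stretch about 5 kb before the Bcl6 start, chr16:23993501-23994500 within Gm31527, had the lowest ratio of the locus in the cecum. It was picked after its values were seen. There Tfh-like cells had 1 fragment (cecum) and 0 (tumor), while Innate-like T#1 had 88 and 127 (10.9 and 10.2 FPM). The log2 ratio was -4.54 (-9.86 to -2.02) in the cecum, and the upper end of the interval was -0.61 in the tumor. Its tiles did not count as separating, because 0 fragments of the small tumor group allow up to 5.35 FPM, which is not 2-fold below Innate-like T#1. Besides Innate-like T#1, the stretch was seen in Innate-like T#2 (5.66 and 5.64 FPM) and in PD1+ CD4 cells of the tumor (27 fragments, 4.40 FPM). CCR7+ CD4 cells had 3.35 and 4.11 FPM from 4 and 3 fragments, and IL10+ Treg cells of the tumor had 2.93 FPM. Within the tumor a lower level in Tfh-like than in PD1+ CD4 cells was not detectable at this depth, while the cecum Tfh-like cells against PD1+ CD4 cells of the tumor gave -3.23 (-8.58 to -0.63) from 1 against 27 fragments.

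The other 6 loci were tiled within 50 kb. The tiles named at them were chosen for their differences, so their ratios are a description. Of 90 tiles compared with Innate-like T#1, 28 (31.1%) were higher in Tfh-like cells and 1 (1.11%) was lower, against 4.04% and 6.36% over the genome. Against PD1+ CD4 cells, 16 of 94 (17.02%) were higher and 22 (23.4%) lower, where the genome had 8.62% and 16.4%, and 9 tiles were higher than in both. Of these 9, 6 lay at Cxcr5, 2 at Sh2d1a and 1 at Pou2af1, and none at Il21, Tox2 or Ascl2. One of them, chr9:44533501-44534000 at Cxcr5, had 4 Tfh-like fragments of the tumor. Its tumor intervals, -0.44 to 3.02 (Innate-like T#1) and -0.59 to 3.09 (PD1+ CD4), both hold 0. Among the tiles higher than in PD1+ CD4 cells, some at Cxcr5, Il21 and Tox2 had intervals that hold 0. Most of the 22 lower tiles had 1 to 3 Tfh-like fragments and reached the minimum through PD1+ CD4 cells. Most of their intervals hold 0. Some turned with the cecum Tfh-like cells, as chr9:44568001-44568500 at Cxcr5 did, from -1.19 to 1.47. Others stayed below 0, as chr2:163155001-163155500 at Tox2 did (-1.14). With so few Tfh-like fragments of the tumor, the share of lower tiles is no result about these loci.

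At Cxcr5, 12 of 42 tiles were higher than in Innate-like T#1, and 7 of 29 were higher and 5 lower than in PD1+ CD4 cells. The leading tile, chr9:44526501-44527000, lies 0.31 kb outside the higher-coordinate end of the gene. Tfh-like cells stood there at 35.2 and 58.9 FPM, above all other labels in both libraries, with 7.81 and 9.68 FPM in Innate-like T#1 and 18.1 FPM in PD1+ CD4 cells. The log2 ratios were 2.17 (1.67 to 2.68), 2.60 (2.002 to 3.17) and 1.70 (1.10 to 2.28). With the cecum Tfh-like cells set against PD1+ CD4 cells of the tumor the ratio was 0.96 (0.52 to 1.40), which is under 2-fold. A second tile, chr9:44533001-44533500, 6.81 kb outside the same end, gave 31.9 and 24.97 FPM against 7.19, 7.52 and 10.4 FPM, but CCR7+ CD8 or CCR7+ CD4 cells led there. The largest difference from PD1+ CD4 cells was at chr9:44510501-44511000 in Bcl9l, with 8 against 16 fragments (2.45, 1.02 to 3.76).

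At Sh2d1a, 3 of 5 tiles were higher than in Innate-like T#1, and they adjoin across the lower-coordinate end of the gene. The first, chrX:42502001-42502500, stood at 15.5 and 16.1 FPM in Tfh-like cells, 3.47 and 2.24 FPM in Innate-like T#1 and 2.44 FPM in PD1+ CD4 cells, and Tfh-like cells led all labels. The next, chrX:42502501-42503000, gave 20.2 and 23.2 FPM against 7.93, 8.16 and 7.81 FPM. These 2 tiles were past 2-fold against both other labels, where the whole window was 1.55-fold over PD1+ CD4 cells. They are named for passing that rule, so a clearer separation than in the whole window was partly built in. In the tumor both comparisons use the same 9 and 13 Tfh-like fragments. Within the gene, 2 tiles were lower than in PD1+ CD4 cells, each with 1 Tfh-like fragment.

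At Pou2af1, the start tile chr9:51213501-51214000 was at 38.5 and 39.2 FPM in Tfh-like cells, 18.5 and 19.0 FPM in Innate-like T#1 and 6.67 FPM in PD1+ CD4 cells, with log2 ratios of 1.06, 1.05 and 2.56. A tile near the far end of the gene, chr9:51239001-51239500, 25.6 kb downstream of the start, was more selective. Tfh-like cells had 60 and 10 fragments there (28.1 and 17.8 FPM) against 13 and 17 (1.61 and 1.36 FPM), for ratios of 4.13 (3.24 to 5.12) and 3.71 (2.42 to 4.92). PD1+ CD4 cells had 5 fragments (0.814 FPM), which left the pair under the minimum of 20. Tfh-like cells led all labels at this tile in both libraries, whereas CCR7+ CD8 cells led at the start.

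At Tox2, 8 of 17 tiles were higher than in Innate-like T#1, and 1 of 23 was higher and 7 lower than in PD1+ CD4 cells. The tile just inside the start, chr2:163203501-163204000, had 42.2 and 35.7 FPM in Tfh-like cells, 3.47 and 4.00 FPM in Innate-like T#1 and 33.7 FPM in PD1+ CD4 cells. A pair of tiles about 36 kb before the start, chr2:163166001-163167000, had 29 and 31 Tfh-like fragments in the cecum against 3 and 6 in Innate-like T#1. In PD1+ CD4 cells of the tumor the same pair stood at 22.0 and 30.4 FPM, above the 12.5 and 10.7 FPM of Tfh-like cells. The second tile of the pair was lower than in PD1+ CD4 cells by a log2 ratio of -1.51 (-2.97 to -0.36), and by -1.07 (-1.66 to -0.51) with the cecum Tfh-like cells. Of the tiles compared, 30.4% were lower than in PD1+ CD4 cells, against 16.4% over the genome. Most of these 7 tiles had 1 Tfh-like fragment of the tumor. With the cecum Tfh-like cells, chr2:163204501-163205000 and chr2:163232501-163233000 had ratios above 0 (0.30 and 0.53). The others stayed below 0, chr2:163229001-163229500 barely so (-0.03). At chr2:163155001-163155500, PD1+ CD4 cells led the tumor labels at 15.5 FPM. The ratio there was -3.12 (-8.43 to -0.60) from 1 Tfh-like fragment, and -1.14 (-2.03 to -0.34) with the cecum Tfh-like cells. With so few Tfh-like fragments of the tumor, the share is no result about the locus.

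At Il21, few tiles could be compared with Innate-like T#1, since that label had almost no fragments at the gene. The 2 of 9 that were higher, chr3:37174501-37175500, lie in another gene, Gm36000, with 12 and 9 Tfh-like fragments in the cecum. At chr3:37231001-37231500, inside the gene, Tfh-like cells had 27 and 6 fragments and Innate-like T#1 had 1 and 1. At chr3:37233001-37233500, just before the start, they had 30 and 8 against 1 and 2. Tfh-like cells led all labels at both tiles in both libraries. The log2 ratios to PD1+ CD4 cells were 1.45 (-0.13 to 2.78) and 1.10 (-0.21 to 2.21), and both intervals hold 0. With the cecum Tfh-like cells, across libraries, they were 1.70 (0.85 to 2.55) and 1.08 (0.35 to 1.79). Of 23 tiles compared with PD1+ CD4 cells, 3 (13.04%) were higher and 6 (26.1%) lower, against 8.62% and 16.4% over the genome. The lower ones rest on 1 to 6 Tfh-like fragments of the tumor, so their share is no result about the locus. At chr3:37257501-37258000, 25.1 kb before the start, PD1+ CD4 cells of the tumor had 21.5 FPM and Tfh-like cells 10.7 FPM from 6 fragments, a log2 ratio of -1.01 (-2.48 to 0.15) that is not beyond counting error. With the cecum Tfh-like cells it was -0.61 (-1.23 to -0.03). At chr3:37259501-37260000 PD1+ CD4 cells had 18.6 FPM and Tfh-like cells of the tumor 3.57 FPM (-2.38, -5.44 to -0.49, from 2 Tfh-like fragments). In the cecum Tfh-like cells had 15.5 FPM at the latter, and against PD1+ CD4 cells of the tumor those gave -0.26 (-0.87 to 0.31). Between them, at chr3:37258001-37258500, PD1+ CD4 cells led the tumor labels at 14.7 FPM (-1.45, -3.76 to 0.14, from 3 Tfh-like fragments). With 14 fragments of the cecum Tfh-like cells the ratio there was -1.16 (-2.09 to -0.34). Such ratios were above 0 at chr3:37204001-37204500, chr3:37268001-37268500 and chr3:37273001-37273500 (0.09, 0.36 and 0.24).

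At Ascl2, the separating tiles lay in Tspan32, about 40 kb from the gene. One, chr7:143008501-143009000, was higher than in Innate-like T#1 (32.4 and 21.4 against 11.9 and 10.6 FPM). Its near neighbor, chr7:143010001-143010500, was lower than in both, at 7.03 and 5.35 FPM against 26.4 and 25.9 FPM in Innate-like T#1 and 34.0 FPM in PD1+ CD4 cells. Whether these tiles act on Ascl2 was not tested.

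**Figure D5:**
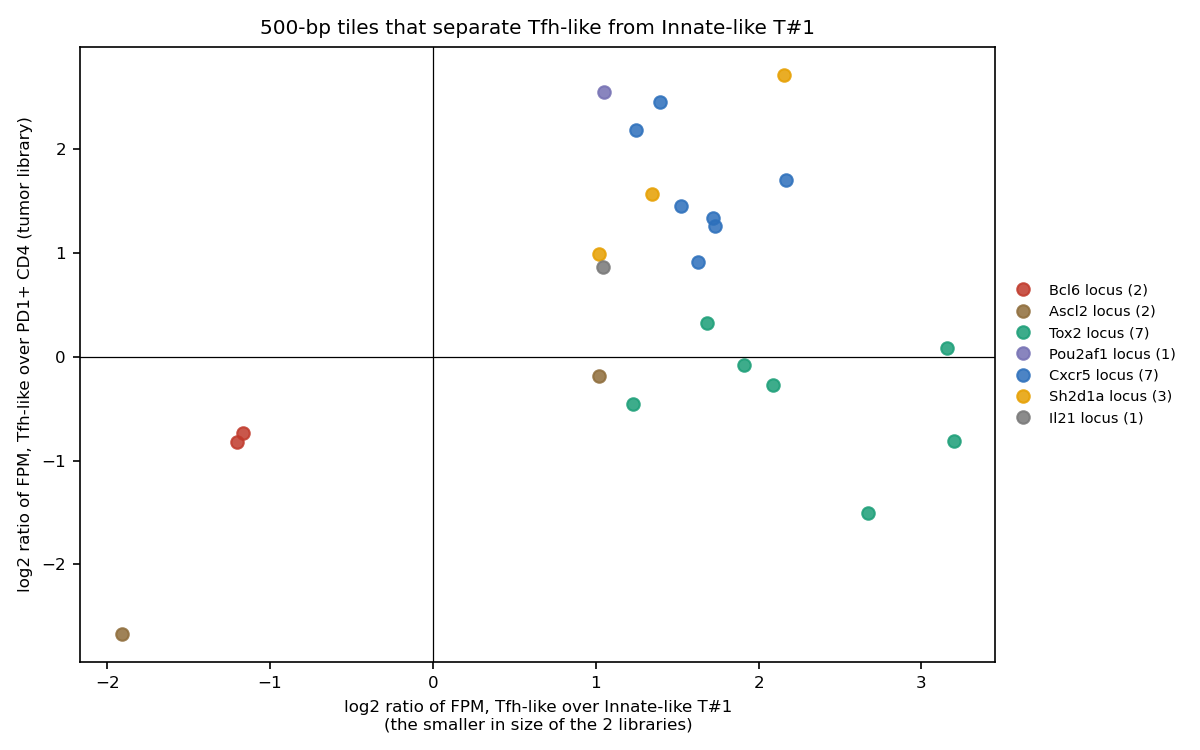
Each of 23 tiles that separate Tfh-like cells from Innate-like T#1 and were also compared with PD1+ CD4 cells, by log2 ratio to Innate-like T#1 (horizontal, the smaller in size of the 2 libraries) and to PD1+ CD4 cells of the tumor (vertical), colored by locus with the number of tiles in parentheses. Tiles of Cxcr5, Sh2d1a and Pou2af1 lie above 0 on both axes, 5 of the 7 Tox2 tiles lie below 0 on the vertical axis, and the 2 Bcl6 tiles lie below 0 on both.

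Of 25 other genes tied to Tfh cells, 13 were 1.5-fold more open in Tfh-like cells than in Innate-like T#1 in both libraries, 0 were less open and 12 were neither, with medians of 0.72 and 0.71, where 4.95% of all genes were higher and 8.08% lower. The higher ones were the receptors and ligands Icos, Cd40lg, Btla, Cd200, Tigit, Slamf6, Slamf1, Il6ra and Tnfsf8, the factors Maf, Batf and Irf4, and Angptl2. Il6ra, a chain of the receptor for IL-6, an inducer of Bcl6, was at 181 and 185 FPM against 24.5 and 32.8 FPM (2.88 and 2.50), and at 55.8 FPM in PD1+ CD4 cells (1.73). Cd40lg, the helper signal to B cells, had ratios of 1.99 and 2.02 to Innate-like T#1 and 0.58 to PD1+ CD4 cells. Against PD1+ CD4 cells, 4 of the 25 were higher (Il6ra, Il6st, Id3 and Angptl2), 3 were lower (Slamf1, Il4 and P2rx7) and 18 were neither, with a median of 0.23. With 10.3% of all genes higher and 14.9% lower, these shares are near the background and no result about the list. Shared exhaustion and Tfh genes such as Pdcd1 (-0.27) and Tigit (0.31) were among the latter.

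Of 15 genes that oppose the Tfh fate or mark T cells outside follicles, 3 were more open in Tfh-like cells than in Innate-like T#1 (Klf2, Gpr183 and Ccr7) and 0 were less open, where 4.95% of all genes were higher and 8.08% lower, with medians of -0.05 and 0.02. Prdm1, whose product Blimp-1 and Bcl6 repress each other, had ratios of 0.55, 0.25 and -0.27. Against PD1+ CD4 cells, Klf2 and S1pr1, a factor and a receptor of T cell egress, were higher (1.23 and 1.13), and Tbx21 and Stat5a were among the lower (-1.08 and -0.72), with counts near the shares of all genes, 10.3% and 14.9%.

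Over the 33 groups of a label and library with at least 50 cells, the genes whose log2(FPM + 1) followed a member most closely were named by Pearson r among 21295 genes. The groups share libraries and cell types, so r is a description. For Bcl6 these were Arpc3 (0.76), Wdr86, Atf4, Mfsd4a and Prag1 (0.69). For Cxcr5 they were Stambpl1 (0.87), Socs3 and Slc24a3, for Il21 Casp4 (0.82), Mettl7a1 and Lars2, and for Tox2 Mmp10 (0.91), Myo3b and Kcnh5. For Pou2af1 they were Tha1 (0.85), the neighboring gene Colca2 (0.84) and Cd2ap, for Sh2d1a Gpr174 (0.80), Slamf6 and Izumo1r, and for Ascl2 Gstp3, Mylk4 and Dusp8 (all 0.71). Between members r was highest for Cxcr5 with Pou2af1 (0.73) and Il21 with Tox2 (0.62), and Bcl6 had values from -0.47 to 0.10 with the other 6.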

How the data were processed

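Per the submitters' processing notes, the authors ran Cell Ranger ARC 2.0.0 on mm10. The deposited ATAC files list unique fragments, and their read counts per fragment are raw counts; each fragment was counted once. Labels came from the authors' deposited annotation. Fragments with an end in a window were summed per label and library and scaled per 1000000 fragments of the label. Gene spans are those of a GRCm38.p6 table from RefSeq, which holds no exons, so exon or intron is not stated. Genes and tiles with at least 20 fragments over both labels were compared, by folds of 1.5 and 2. A count of 0 was set to 3 counts in ratios. Doublets were not called, and cells above 3 times the median were removed as an alternative. The members and lists were chosen with earlier results of these data known. Named were the members, the 2 lists, the 5 or 3 genes of highest r per member and up to 3 separating tiles per locus, comparison and direction, and any other tile is said to be picked, or stands beside those, after its values were seen. Code was checked on simulated data. One label is not drawn, and some items are not reported here. The tools were scipy 1.17.1, numba 0.67.0, numpy 2.4.6, matplotlib 3.10.9, pandas 2.3.3 and pyarrow 21.0.0 in Python 3.11.15.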

Additional observations from a re-analysis of the deposited data

How the results depend on the processing

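No member past 1.5-fold changed direction under the alternatives run (cell minimum, high cells removed, scaling by fragments near gene starts, mean over cells, fragment ends, other windows, tile grid, fold and minimum, and barcodes of both libraries removed), but several values moved. Counting within 1 kb of the gene start gave Bcl6 log2 ratios to Innate-like T#1 of 0.28 (cecum) and 0.26 (tumor), and medians of the 7 genes of 2.48 (tumor) and 1.64 (PD1+ CD4). Without the 2-kb element, chosen after seeing the data, the Bcl6 ratios were -0.0017 and 0.037. With a mean over cells the tumor median was 1.79, and 7 Bcl6 tiles were lower than in Innate-like T#1 and 7 than in PD1+ CD4 cells. A tile grid moved by 250 bp left 1 lower tile. At 1.5-fold, 1 tile was higher and 5 lower than in Innate-like T#1, and 4 were lower than in PD1+ CD4 cells. With at least 5 Tfh-like fragments expected, also added later, 0 tiles were higher than in PD1+ CD4 cells. Members 1.5-fold higher than in PD1+ CD4 cells numbered 3 without flanks and 3 without high cells, and those higher than in Innate-like T#1 numbered 4 to 6 over all settings. The place of Tfh-like cells by Bcl6 level ran from 4 to 7 (cecum) and from 4 to 14 (tumor). The Bcl6 ratio to PD1+ CD4 cells, never past 1.5-fold, ran from -0.20 to 0.39. The cause of these moves was not tested. The 560742 fragments of tumor Tfh-like cells limit the comparison of single tiles. No paired analysis was possible because the labels give no replicate numbers and each tissue has 1 library.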
